A study of Mus musculus with 80 samples.

Results

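A set of 2029 autosomal bins of 10 kb, out of 246042, is described here. In mouse uterine fibroblasts, H3K27me3 peaks covered more of these bins at GD5.5 after mating, and after progesterone, than at GD0.5. The bins are called gained bins. Coverage is the percent of a bin that lies inside H3K27me3 peaks, and differences are in percentage points. A bin was chosen when its coverage was at least 40 points higher than in the GD0.5 uterus list of B6CBAF1/J females in each of the other 3 B6CBAF1/J lists. Those 3 lists were GD5.5 IIS, GD5.5xVAS uterus and NP P4 uterus. These 4 lists chose the bins, so their values are given as a description with no test. The readout left for comparison is coverage in 12 further lists from a Kdm6b set, by stage and genotype.

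All libraries came from fibroblasts purified with magnetic beads from digested myometrium and endometrium, and the mark was mapped with CUT&RUN, an assay that cuts and releases chromatin where an antibody is bound. In the B6CBAF1/J set, GD5.5 IIS was tissue between implantation sites after mating with a B6 male, GD5.5xVAS was uterus after mating with a vasectomized male, NP P4 was uterus of non-pregnant females given progesterone for 3 days, and GD0.5 was uterus after mating with a B6 male. In the Kdm6b set, females were Pgr-Cre Kdm6b f/f (called cKO) or Kdm6b f/f without Cre (control), all mated with B6 males. They gave IIS fibroblasts from GD5.5, from GD8.5 and from GD14.5, and implantation site (IS) fibroblasts at GD14.5 and GD18.5. A Pdgfra-Cre Kdm6b f/f group and its own Kdm6b f/f control were taken at GD14.5 IS. The Pgr-Cre driver deletes floxed alleles wherever Pgr is transcribed, Pdgfra-Cre in fibroblasts. Each of the 16 lists pools 3 samples, with no values per replicate, and sequencing depth is not given among the sources here. The Kdm6b lists covered 609 to 740 Mb and the B6CBAF1/J lists 681 to 704 Mb, most of it in weak peaks. The median peak had a deposited fold over background of 1.12 to 1.15 in the Kdm6b lists and 1.09 in each B6CBAF1/J list. Peak widths and gaps differ between the sets, so levels are compared only within a set.

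Trimethylation of lysine 27 on histone H3 is laid down by Polycomb repressive complex 2 over genes that are held silent, and KDM6B is a demethylase that removes it. Progesterone acts through its nuclear receptor to prepare the uterus for implantation and keeps the myometrium quiescent until labour. A female mated with a vasectomized male becomes pseudopregnant and makes progesterone without an embryo.

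Transcription start windows are shown first, because a start inside a gained bin ties that bin to a named gene. Bins are often covered only in part, and whether a start itself lay inside a peak was not tested. The starts of 94 protein-coding genes lay in gained bins. In the Kdm6b set, 14 of these genes had a start in a bin that was higher in cKO and 1 in a bin that was lower. By the same test, given below, 13.8% of all bins tested were higher and 4.59% lower. The 3 with the smallest p among the higher ones were Arsg, which encodes a sulfatase, at chr11:109543461-109543760 on the + strand, Tprg at chr16:25286567-25286866 on the + strand, and Chst3, which encodes a chondroitin sulfotransferase, at chr10:60219211-60219510 on the - strand. The lower one was Chrm5, a muscarinic acetylcholine receptor gene, at chr2:112480768-112481067 on the - strand. Csf1, the macrophage growth factor gene, at chr3:107760420-107760719 on the - strand, and Acta2, the smooth muscle actin gene, at chr19:34255324-34255623 on the - strand, belong to the gene lists used below. Each window runs from 250 bases before to 50 bases after the start, 5′ to 3′, from RefSeq on GRCm38.p6, the assembly behind mm10. Capitals mark CG dinucleotides.
Arsg: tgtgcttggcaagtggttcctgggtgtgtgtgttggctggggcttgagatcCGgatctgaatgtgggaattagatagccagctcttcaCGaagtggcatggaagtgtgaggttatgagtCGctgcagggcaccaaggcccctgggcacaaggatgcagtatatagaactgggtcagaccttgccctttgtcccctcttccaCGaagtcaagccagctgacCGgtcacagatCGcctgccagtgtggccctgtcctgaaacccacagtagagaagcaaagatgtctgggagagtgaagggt
Tprg: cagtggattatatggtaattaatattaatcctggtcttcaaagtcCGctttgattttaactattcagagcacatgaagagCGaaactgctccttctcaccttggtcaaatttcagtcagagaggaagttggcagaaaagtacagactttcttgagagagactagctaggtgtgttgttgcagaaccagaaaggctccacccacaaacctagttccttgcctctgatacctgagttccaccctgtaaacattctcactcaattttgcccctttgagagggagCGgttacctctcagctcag
Chst3: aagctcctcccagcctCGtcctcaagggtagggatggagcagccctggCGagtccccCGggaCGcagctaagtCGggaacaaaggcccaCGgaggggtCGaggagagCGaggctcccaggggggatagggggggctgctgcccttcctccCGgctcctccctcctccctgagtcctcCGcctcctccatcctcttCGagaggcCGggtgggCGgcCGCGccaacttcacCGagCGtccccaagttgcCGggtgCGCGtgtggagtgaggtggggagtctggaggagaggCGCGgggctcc
Chrm5: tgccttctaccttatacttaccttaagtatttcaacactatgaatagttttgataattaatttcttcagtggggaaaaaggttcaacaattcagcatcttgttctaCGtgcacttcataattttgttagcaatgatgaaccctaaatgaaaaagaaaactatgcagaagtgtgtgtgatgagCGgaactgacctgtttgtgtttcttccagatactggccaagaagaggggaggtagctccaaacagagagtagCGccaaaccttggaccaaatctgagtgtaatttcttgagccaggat
Csf1: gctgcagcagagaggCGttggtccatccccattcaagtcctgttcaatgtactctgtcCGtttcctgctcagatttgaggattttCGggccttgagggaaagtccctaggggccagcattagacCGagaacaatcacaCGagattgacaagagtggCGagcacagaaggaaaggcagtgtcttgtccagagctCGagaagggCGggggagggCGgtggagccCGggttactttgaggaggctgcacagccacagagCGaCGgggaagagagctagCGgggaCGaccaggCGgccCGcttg
Acta2: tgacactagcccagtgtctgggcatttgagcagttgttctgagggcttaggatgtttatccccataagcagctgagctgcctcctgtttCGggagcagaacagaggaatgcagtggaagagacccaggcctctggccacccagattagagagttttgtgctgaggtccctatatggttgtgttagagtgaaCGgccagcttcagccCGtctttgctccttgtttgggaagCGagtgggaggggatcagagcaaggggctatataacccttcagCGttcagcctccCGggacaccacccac
The Chst3 window held 22 CG dinucleotides and the Csf1 window 16, while Arsg and Acta2 had 6 each and Tprg and Chrm5 had 3 each. Of 280 start windows of all gene types in gained bins, 17.5% had an observed to expected CG ratio of at least 0.6, against 36.4% of 31363 autosomal windows. The share was 26.5% in bins of similar mean coverage in the Kdm6b set, defined below. It was 18.3% in bins lost by at least 40 points in the same 3 lists.

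In the lists that chose them, the gained bins had a median coverage of 81.8% in GD5.5 IIS, 84.7% in GD5.5xVAS, 89.9% in NP P4 and 16.5% in GD0.5. None was at 0 in the first 3 lists, and 473 were at 0 in GD0.5. The mean over all autosomal bins was 24.2%, 24.3% and 23.5% in the 3 lists and 24.6% in GD0.5, so the 4 lists covered similar shares of the autosomes. Single lists gained 3916 bins in GD5.5 IIS (1.59% of autosomal bins), 4521 in GD5.5xVAS (1.84%) and 5276 in NP P4 (2.14%). The gained bins were 51.8%, 44.9% and 38.5% of these, and 0.825% of all bins. The 3 differences share the GD0.5 list, so their overlap is no independent result. The mirror rule, at least 40 points lower in all 3 lists, chose 1804 lost bins, 0.733% of autosomal bins. The bins nearest to the threshold had a smallest difference of 40, 40 and 40.01 points inside it and of 39.99, 39.98 and 39.96 points outside it. There were 522 gained bins under 45 points, 722 bins between 35 and 40 points, and 280 gained bins with at least 70 points in all 3 lists.

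**Figure D1:**
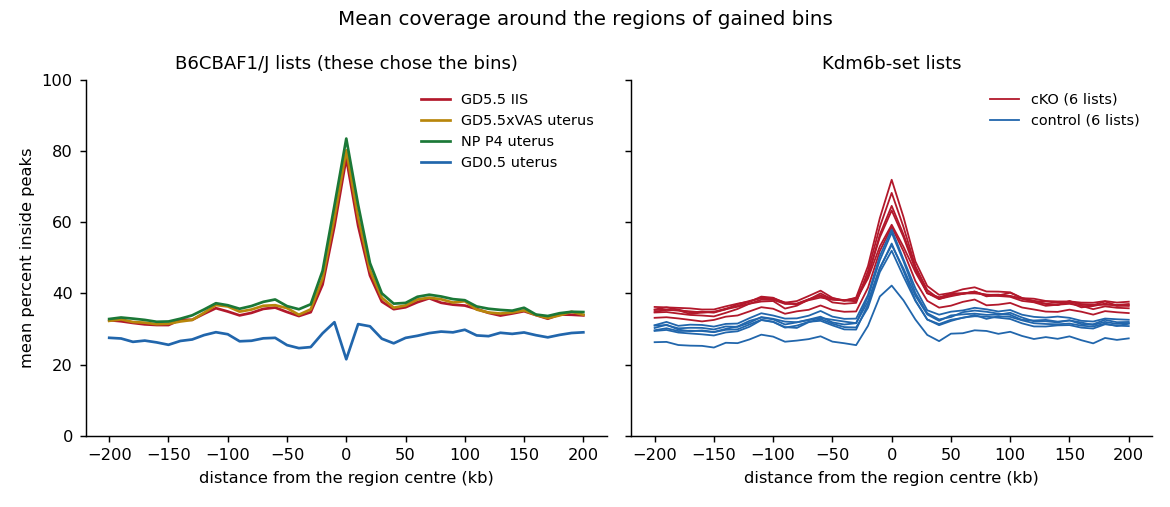
Mean coverage in percent against distance in kb from the centre of the 1317 regions of adjacent gained bins, on the left in the B6CBAF1/J lists that chose them and on the right in the 6 cKO and 6 control lists of the Kdm6b set. On the left GD5.5 IIS, GD5.5xVAS and NP P4 peak at the centre and GD0.5 dips there, by construction, and on the right every list of the Kdm6b set peaks at the centre.

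Gained bins were found on every autosome. Of the 2029 bins, 1006 (49.6%) overlapped a protein-coding gene, against 45.7% of all autosomal bins, 38.6% of bins of similar mean coverage and 39.6% of lost bins. Bins of similar mean coverage are the autosomal bins whose mean over the 12 Kdm6b-set lists lay between 43.9% and 73.8%, the quartiles of the gained bins. Gained bins outside genes were a median of 54.0 kb from the nearest one, against 62.5 kb for bins of similar mean coverage, 110 kb over all bins outside genes and 108 kb for lost bins. A start window lay in 10.8% of gained bins, 11.3% of bins of similar mean coverage and 9.81% of all bins. In all 509 of 20665 autosomal protein-coding genes (2.46%) held a gained bin and 207 held at least 2. The median length of the 509 genes was 104 kb, against 17.5 kb over all protein-coding genes, and a long gene has more bins to be chosen from. Adjacent gained bins, or bins with 1 bin between them, made up 1317 regions, of which 899 were single bins and 169 had 3 or more. Of the gained bins, 46.4% had a gained bin directly beside them, and such neighbours can share a peak.

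One of the 4 longest regions, of 90 kb, lay inside Sgms1, a sphingomyelin synthase gene, at chr19:32160001-32250000. Tox, which encodes an HMG-box nuclear factor, held a region of 90 kb at chr4:6750001-6840000, and Nfib, a nuclear factor I gene, held 80 kb at chr4:82400001-82480000. Thsd4 held 70 kb at chr9:60400001-60470000, Ltbp1, whose protein binds latent TGF-beta, 70 kb at chr17:75090001-75160000, and Fry 70 kb at chr5:150360001-150430000. The other long regions lay between genes. They were 90 kb at chr2:115320001-115410000, 90 kb at chr10:99420001-99510000 with Dusp6 as the nearest gene, 80 kb at chr8:36000001-36080000 near Prag1 and 70 kb at chr10:118760001-118830000 near Dyrk2. By number of gained bins, a count chosen after the values were seen, Thsd4 led with 19, followed by Ltbp1 with 13 and Adamtsl3, Nav2, Nfib and Tln2 with 12 each. Of genes with at least 2 gained bins, 6 short ones were wholly inside them, which are Exoc3l4, Gm40755, Gm5148, Inpp5j, Pla2g3 and Sectm1b. Inpp5j, an inositol phosphatase gene, and Pla2g3, a secreted phospholipase gene, overlap and share bins. Spint2, a serine protease inhibitor gene, had 92.0% of its span in gained bins and Cd101, an immune surface protein gene, 74.4%.

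Counted in windows of 1 Mb, another view chosen after the values were seen, gained bins were dense in a few places. The window with most gained bins, 28, was chr2:115000001-116000000, which ends within Meis2, a TALE homeobox gene, and the next, with 26, was chr11:19000001-20000000, which begins within Meis1, a second TALE homeobox gene, and ends within Spred2. No gained bin lay in Meis1, Meis2 or Spred2 themselves. Further windows were chr12:25000001-26000000 with 20 gained bins and Id2, an inhibitor of basic helix-loop-helix factors, and chr4:82000001-83000000 with 20 gained bins and Nfib. Of 2470 autosomal windows, 30.6% held a gained bin and 99 held 5 or more.

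In the Kdm6b set, which did not choose them, the gained bins were well covered in every list. Their median coverage in the cKO lists was 73.0% at GD5.5 IIS, 77.5% at GD8.5 IIS, 61.1% at GD14.5 IIS, 62.5% at GD14.5 IS, 68.0% at GD18.5 IS and 68.6% in the Pdgfra-Cre list at GD14.5 IS. In the control lists it was 58.6%, 55.4%, 60.7%, 51.9%, 54.1% and 40.1% in the same order. The median over all autosomal bins was 0 to 6.22% in cKO lists and 0 to 4.96% in control lists, and the median over lost bins was 25.04% to 43.9% in cKO lists and 19.9% to 33.2% in control lists. The control median was below the cKO median in each of the 6 pairs, by less than 1 point at GD14.5 IIS. At GD14.5 IS the Pdgfra-Cre set control list and the Pgr-Cre set control list, both Kdm6b f/f, had medians of 40.1% and 51.9%, so lists of 1 genotype and stage differed by more than 10 points. Over the 12 lists, 1341 gained bins (66.1%) averaged at least 50%, against 23.7% of all bins, and 416 (20.5%) were at 50% or more in every list, against 14.6% of all bins.

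**Figure D2:**
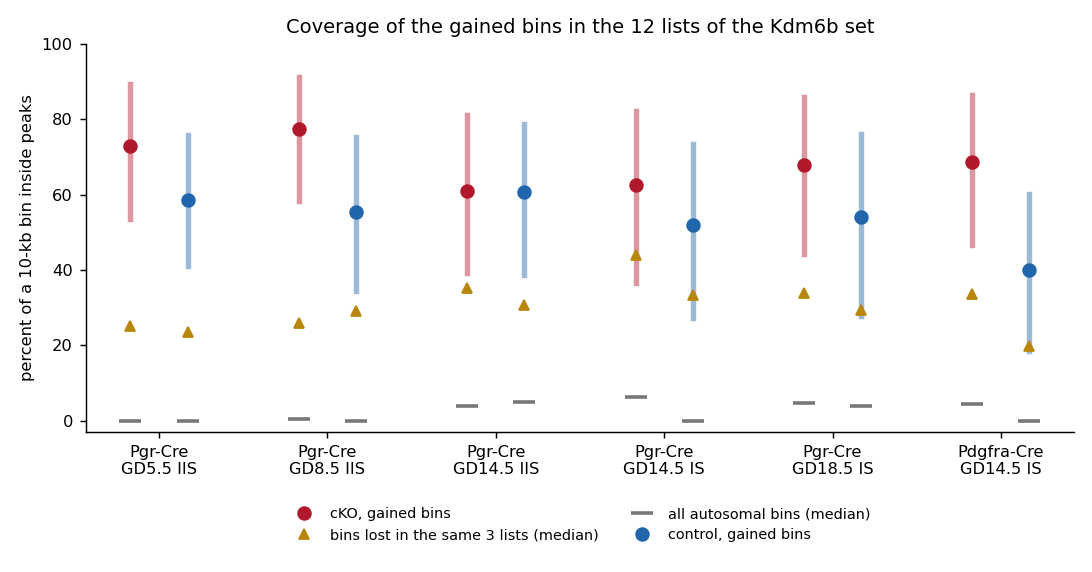
Percent of a 10-kb bin inside peaks in the 12 lists of the Kdm6b set. Circles are medians over the 2029 gained bins with bars from the first to the third quartile, triangles are medians over the 1804 lost bins and dashes medians over all autosomal bins, with cKO left of control in each pair. Gained bins lie above lost bins in every list, which the rule that chose them favours. The cKO circle lies above the control circle in each pair. The difference is least at GD14.5 IIS, where the medians are 61.1% in cKO and 60.7% in control.

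The question asked of genotype was whether the gained bins had higher coverage in cKO than in control lists. Bins with a mean coverage of at least 5% over the 12 lists were tested with limma on the 6 cKO minus control differences, with Benjamini-Hochberg adjusted p under 0.05 over all 125904 bins tested, and higher or lower in cKO below means that this test was passed. Of the 2029 gained bins 2021 were tested and 8 were below the filter. Coverage was higher in cKO in 460 (22.8%), against 13.8% of all bins tested, and lower in 18 (0.891%), against 4.59% of all bins tested. The other 1543 did not pass. Of the 30208 bins of similar mean coverage, 17.4% were higher and 5.94% lower. Of 1735 lost bins tested, 23.4% were higher in cKO, close to the share among gained bins, and 8.88% were lower. The median difference was 10.7 points over gained bins tested, 3.47 over bins of similar coverage, 4.91 over lost bins and 1.27 over all bins tested. The share higher in cKO was thus about as large among lost bins as among gained bins, and the difference between these shares was not tested.

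The mean cKO minus control difference over the gained bins was 11.7 points at GD5.5 IIS, 18.9 at GD8.5 IIS, 0.847 at GD14.5 IIS, 7.84 at GD14.5 IS, 10.9 at GD18.5 IS and 23.1 in the Pdgfra-Cre pair at GD14.5 IS. Over all autosomal bins it was 1.40, 1.63, -0.933, 3.04, 1.18 and 5.61 points in the same order. Bins of similar mean coverage had 3.46, 5.98, 0.296, 5.94, 3.76 and 14.9 points. Lost bins had 4.05, -1.51, 5.26, 9.44, 5.00 and 13.2 points, more than gained bins in the Pgr-Cre pairs of GD14.5 IIS and GD14.5 IS. The Pdgfra-Cre pair, in which the control list covered 520 Mb of the autosomes and the cKO list 658 Mb, had the largest difference in each of these sets of bins. Gained bins at least 40 points higher in cKO numbered 183 at GD5.5 IIS (2.12% of all bins passed the same size), 372 at GD8.5 IIS (2.93%), 183 at GD14.5 IIS (2.48%), 202 at GD14.5 IS (3.65%), 268 at GD18.5 IS (2.88%) and 454 in the Pdgfra-Cre pair (4.44%). These are 9.02%, 18.3%, 9.02%, 9.96%, 13.2% and 22.4% of the gained bins, against 6.58%, 9.45%, 8.99%, 8.49%, 8.73% and 14.8% of bins of similar mean coverage, so the shares were nearly equal at GD14.5 IIS. Gained bins at least 40 points lower in cKO numbered 13 (0.596% of all bins), 9 (1.26%), 139 (2.55%), 47 (1.03%), 22 (1.36%) and 5 (0.137%) in the same order. These are 0.641%, 0.444%, 6.85%, 2.32%, 1.08% and 0.246% of the gained bins, against 2.64%, 3.56%, 6.59%, 3.70%, 3.44% and 0.675% of bins of similar mean coverage. The GD14.5 IIS pair held most of the bins lower in cKO. In 520 gained bins (25.6%) the cKO list was higher in all 6 pairs, against 19.6% of bins of similar mean coverage, 23.9% of lost bins and 8.09% of all autosomal bins.

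The count of 460 depended on the coverage filter, on the unequal length of the lists and on single pairs. With no filter on mean coverage 182 of 2029 gained bins were higher in cKO (8.97%, against 3.05% of all bins) and 1 lower (0.0493%, against 0.573%). When each list was cut to an equal covered length, 175 of 1934 gained bins were higher in cKO (9.05%, against 3.86% of all bins tested) and 8 lower (0.414%, against 1.65%). Of these, 153 of the 175 were among the 460, and 1 of the 8 was among the 18. Without the GD8.5 IIS pair 291 were higher, without the GD14.5 IS Pgr-Cre pair 298 and without the Pdgfra-Cre pair 294, and over all 6 pairs left out in turn the range was 291 to 341 (14.4% to 16.9%, against 8.56% to 10.6% of all bins tested). The 18 lower bins became 8 without the GD5.5 IIS pair, 9 without GD8.5 IIS, 8 without GD14.5 IIS, 1 without GD14.5 IS and 1 without GD18.5 IS.

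**Figure D3:**
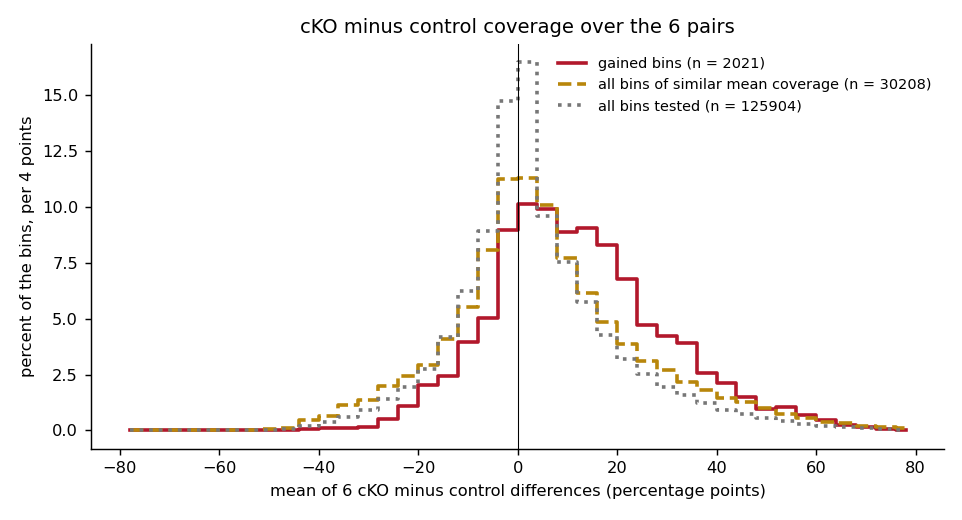
Distribution of the mean of the 6 cKO minus control differences, in percentage points on the horizontal axis and percent of the bins per 4 points on the vertical axis, for gained bins, for all bins of similar mean coverage and for all bins tested. Gained bins are shifted to the right, with a median of 10.7 points against 3.47 and 1.27 points.

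The gained bin with the smallest p was chr2:174060001-174070000, 6.26 kb from Stx16, a syntaxin gene. Its coverage was 80.9%, 76.5%, 87.9%, 72.6%, 100% and 70.4% in the cKO lists (GD5.5 IIS, GD8.5 IIS, GD14.5 IIS, GD14.5 IS, GD18.5 IS, Pdgfra-Cre GD14.5 IS), against 32.2%, 37.3%, 46.4%, 30.5%, 56.3% and 26.9% in the control lists. The 2 groups of lists do not overlap, and the difference was 43.1 ± 3.22 points (SD over 6 pairs, limma adjusted p = 0.000424). At chr1:88760001-88770000, 57.8 kb from Arl4c, coverage averaged 84.3% in cKO and 23.6% in control lists, a difference of 60.7 ± 5.84 points (limma adjusted p = 0.000449). Of the 10 bins with the smallest p that were higher in all 6 pairs, 3 lay between Meis1 and Spred2, at chr11:19540001-19550000, chr11:19550001-19560000 and chr11:19740001-19750000. In the 1-Mb window that holds them, 15 of the 26 gained bins were higher in cKO. The mean coverage of these 26 bins was 73.6%, 77.1%, 73.3%, 76.9%, 76.7% and 75.04% in the cKO lists in the order above, against 58.8%, 56.5%, 46.6%, 47.02%, 43.4% and 39.6% in the control lists. The cKO lists lie close together, and each lies above every control list, of which those of GD14.5 and GD18.5 are the lowest. In the denser window beside Meis2, 3 of 28 gained bins were higher.

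All 3 gained bins of Cd101 were higher in cKO. Their mean coverage was 83.0%, 85.0%, 70.7%, 69.1%, 72.0% and 63.6% in the cKO lists, in the order given above, against 33.8%, 20.1%, 16.3%, 17.8%, 24.96% and 15.2% in the control lists. Exoc3l4, an exocyst-related gene, had 2 of its 3 gained bins higher in cKO, with means of 47.2% in cKO and 20.6% in control lists, a difference of 26.7 ± 13.2 points over the 6 pairs. The bin of the Csf1 start had 89.8%, 88.7%, 63.2%, 51.6%, 51.9% and 52.4% in cKO lists, against 80.8%, 38.5%, 0%, 11.1%, 23.5% and 25.3% in control lists. The cKO list was higher in each of the 6 pairs, by 36.4 ± 19.1 points on average (limma adjusted p = 0.0208), and both genotypes were highest at GD5.5. Of the starts printed above, the Arsg bin averaged 90.3% in cKO and 48.1% in control lists (difference 42.2 ± 7.58, limma adjusted p = 0.00136), the Tprg bin 97.4% and 50.2% (47.2 ± 12.03, adjusted p = 0.00280) and the Chst3 bin 69.8% and 51.7% (18.0 ± 4.77, adjusted p = 0.00494). A second Arsg start, at chr11:109485642-109485941, lay in another gained bin that did not pass (difference 8.63 points, limma adjusted p = 0.257). The Acta2 bin averaged 68.8% in cKO and 66.5% in control lists and did not pass (limma adjusted p = 0.736).

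Other gained bins among the 10 with the smallest p lay 31.3 kb from Nrp2, a semaphorin and VEGF co-receptor gene, with a mean of 90.1% in cKO and 30.4% in control lists, 90.4 kb from Phactr1 with 81.0% and 28.1%, 56.1 kb from Etaa1 with 75.02% and 20.7%, and 290 kb from Foxo1, a forkhead gene needed for decidual gene expression, with 76.3% and 9.76%. The last of these bins, at chr3:52640001-52650000, has Foxo1 as its nearest protein-coding gene and itself holds the start of Gm30235, which is not protein-coding. This bin was at 0 in the 4 control lists of GD14.5 and GD18.5 and at 58.9% to 76.2% in the cKO lists of those stages. Only 1 of these 10 bins lay inside a protein-coding gene, the one in Cd101. Of the regions named above, the one near Dyrk2 had 4 of 6 gained bins higher in cKO, with mean coverage of 76.6% in cKO and 47.3% in control lists (difference 29.3 ± 12.7). Sgms1 had 0 of 8 called, with 57.6% and 63.0%, and the region in Nfib had 0 of 7, with 70.4% in both genotypes.

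The genotype calls were also counted by position. Of the 460 gained bins higher in cKO, 144 (31.3%) overlapped a protein-coding gene, of the 18 lower ones 14 (77.8%), and of the 1543 that did not pass 841 (54.5%). Over all bins tested the shares were 26.4% of higher, 36.5% of lower and 41.3% of other bins, so higher bins were less often in genes there too. The difference between these shares was not tested. Of the 18 lower bins, 1 was also called at equal covered length. Among the 10 with the smallest p that were lower in all 6 pairs, 9 lay in a protein-coding gene, namely Gm973, Map3k19, Cobll1, Myh14 (a non-muscle myosin heavy chain), Shank2 (a synaptic scaffold), Bmpr1b (a BMP receptor), Chrm5, Sorbs2 and Zfpm2 (a GATA cofactor), and 1 was 232 kb from Galr1. The Gm973 bin, at chr1:59560001-59570000, had 31.5%, 48.9%, 18.51%, 21.5%, 29.6% and 15.0% in cKO lists, against 82.5%, 73.1%, 47.2%, 45.3%, 64.0% and 38.7% in control lists (difference -31.0 ± 10.7, limma adjusted p = 0.00669). The Shank2 bin averaged 41.5% in cKO and 84.5% in control lists, and its difference of -43.0 ± 26.4 points had the largest SD of these 10 bins. The Bmpr1b bin averaged 59.2% in cKO and 78.5% in control lists, the Chrm5 bin 46.3% and 71.0%, and the Zfpm2 bin 33.8% and 61.1%.

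By stage, the gained bins were on average less covered at GD14.5 IS and GD18.5 IS than at GD5.5 in both genotypes, and all autosomal bins slightly more. In cKO the mean over gained bins differed from GD5.5 IIS by 3.82 points at GD8.5 IIS, -10.8 at GD14.5 IIS, -11.3 at GD14.5 IS and -6.12 at GD18.5 IS. In control it differed by -3.32, 0.0498, -7.39 and -5.23 points. All autosomal bins differed by 0.819, 0.168, 2.85 and 1.53 points in cKO and by 0.595, 2.503, 1.21 and 1.75 in control. Lost bins differed from GD5.5 IIS by -0.134, 7.64, 14.2 and 6.55 points in cKO and by 5.42, 6.43, 8.81 and 5.60 in control. Each stage has 1 list per genotype, all 4 differences of a genotype share its GD5.5 list, and the IS lists differ from GD5.5 in site as well as in stage.

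**Figure D4:**
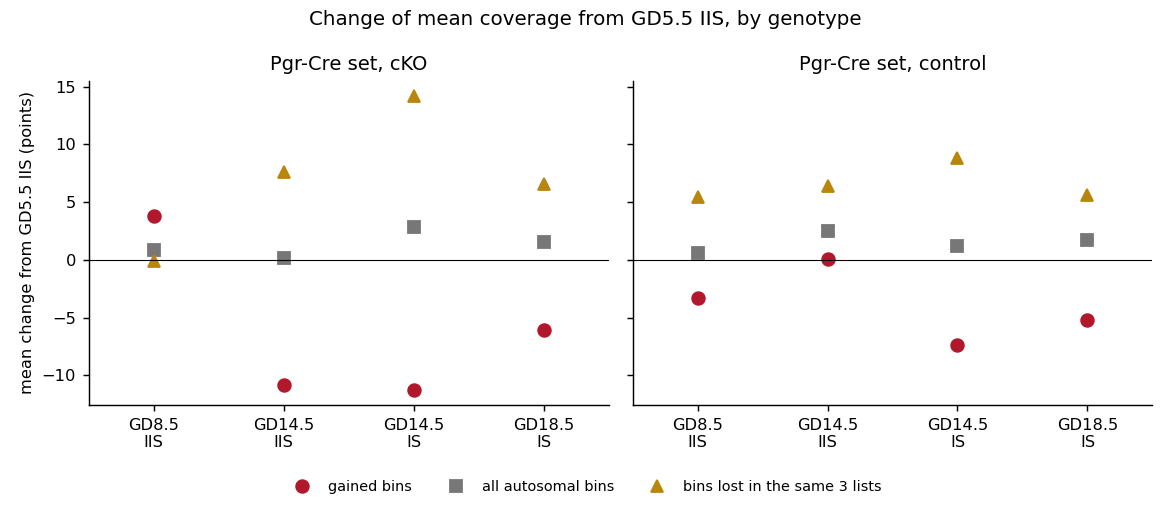
Mean coverage of each later list minus that of the GD5.5 IIS list of the same genotype, in percentage points, for the Pgr-Cre set cKO lists on the left and the control lists on the right. Gained bins lie below all autosomal bins at each later stage except GD8.5 in cKO, and lost bins lie above all autosomal bins except at that same point.

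Counted by size, gained bins at least 40 points below GD5.5 IIS in cKO numbered 8 at GD8.5 IIS (0.353% of all bins passed), 184 at GD14.5 IIS (0.666%), 308 at GD14.5 IS (0.906%) and 175 at GD18.5 IS (0.864%). As shares of the gained bins these are 0.394%, 9.07%, 15.2% and 8.62%, against 0.791%, 1.32%, 2.21% and 1.74% of bins of similar mean coverage. In control they numbered 79 at GD8.5 IIS (0.48% of all bins), 116 at GD14.5 IIS (0.69%), 259 at GD14.5 IS (0.835%) and 252 at GD18.5 IS (1.05%), or 3.89%, 5.72%, 12.8% and 12.4% of the gained bins. Bins of similar mean coverage had 1.83%, 2.65%, 3.24% and 4.20% in control. Gained bins at least 40 points above GD5.5 IIS were fewer, except at GD8.5 IIS in cKO. They numbered 30 (0.466% of all bins), 10 (0.543%), 29 (2.11%) and 39 (1.26%) in cKO and 33 (0.717%), 70 (1.64%), 62 (1.19%) and 90 (1.75%) in control, in the order of the stages. In cKO these are 1.48%, 0.493%, 1.43% and 1.92% of the gained bins, against 1.67%, 2.15%, 5.31% and 3.98% of bins of similar mean coverage. In control they are 1.63%, 3.45%, 3.06% and 4.44%, against 1.99%, 4.07%, 5.02% and 5.87%. In at least 1 later list, 380 gained bins were lower in cKO (18.7%, against 1.71% of all bins) and 357 in control (17.6%, against 1.66%). Of all autosomal bins, 50.8% in cKO and 51.5% in control were at 0 at GD5.5 IIS and could not be lower later. The shares of gained bins and of all bins are thus not alike in this respect.

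A test of stage over lists was added after these values were seen. With limma on the 10 Pgr-Cre set lists and genotype as a term, no later stage against GD5.5 IIS alone had a bin past the threshold in either direction (0 of 2021 gained bins and 0.0% of all bins), with 2 lists on each side. At an unadjusted p under 0.05, 85, 222, 390 and 299 gained bins were lower at GD8.5 IIS, GD14.5 IIS, GD14.5 IS and GD18.5 IS, and 64, 73, 104 and 137 were higher. When the 6 lists of GD14.5 and GD18.5 were set against the 4 lists of GD5.5 and GD8.5, 31 gained bins were lower in the late lists (1.53%, against 0.19% of all bins tested) and 2 were higher (0.0990%, against 0.357%). The gained bins were 13.0% of the 239 bins that were lower and 1.61% of the bins tested. At equal covered length 27 were lower (1.40%, against 0.182%) and 5 higher (0.259%, against 0.126%). Only 6 of these 27 were among the 31, and 0 of the 5 were among the 2. Most of the 31 bins described below were thus not called at equal covered length. The count of 31 changed with single lists. It was 4 without cKO GD5.5 IIS, 6 without cKO GD8.5 IIS, 13 without cKO GD14.5 IS, 8 without cKO GD18.5 IS, 5 without control GD5.5 IIS, 50 without control GD8.5 IIS, 74 without control GD14.5 IIS, 6 without control GD14.5 IS and 5 without control GD18.5 IS. When GD14.5 IIS alone was set against the 4 early lists, which keeps the site, no bin passed, with 214 gained bins lower and 53 higher at an unadjusted p under 0.05.

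Of the 31 bins, 21 lay in protein-coding genes, in 29 separate regions. Their median late minus early difference was -49.99 points, with a median mean coverage of 18.4% in late and 71.0% in early lists. The Pdgfra-Cre lists of GD14.5 IS, which the test did not use, had a median of 35.4% in cKO and 4% in control over these bins.

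The bin with the smallest p lay in Kcnma1, which encodes the pore-forming subunit of the BK potassium channel that dampens smooth muscle excitability, and 2 of its 4 gained bins were lower in late lists. The bin chr14:23820001-23830000 had 82.9%, 85.2%, 22.6%, 22.6% and 17.6% in cKO lists of GD5.5 IIS, GD8.5 IIS, GD14.5 IIS, GD14.5 IS and GD18.5 IS, and 79.6%, 68.9%, 0%, 0% and 0% in control lists. It was also at 9.95% in the Pdgfra-Cre cKO list and 0% in its control list. Late lists were 68.7 points below early lists (limma adjusted p = 0.000470). The Fkbp5 bin, chr17:28450001-28460000, in the gene of a steroid receptor co-chaperone that responds to progesterone, had 78.3%, 100%, 0%, 0% and 0% in cKO lists in that order, and 100%, 95.8%, 43.9%, 0% and 0% in control lists. Both Pdgfra-Cre set lists were at 0 there. Late lists were 86.2 points below early lists (limma adjusted p = 0.0177). Peaks were thus absent from this bin in 7 of the 8 lists of GD14.5 and GD18.5.

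Other bins lower in late lists were in Lgr6, an R-spondin receptor gene, which was 63.3 points lower (limma adjusted p = 0.0101), in Gnao1, a G protein alpha subunit gene, 49.99 points lower (adjusted p = 0.0101), in Oit3, 67.0 points lower (adjusted p = 0.0135), and in Cmya5, a muscle protein gene, 33.9 points lower (adjusted p = 0.00661). The Lgr6 bin had 6.77%, 11.8% and 13.5% in the 3 late cKO lists and 14.4%, 6.59% and 9.99% in the 3 late control lists, against 86.0% and 75.02% in early cKO and 79.7% and 54.3% in early control lists. One bin with the opposite change, chr1:59410001-59420000, 57.5 kb from Cdk15, was 17.7 points higher in late lists (limma adjusted p = 0.0192), with 100% in each late cKO list.

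Some of the genes with most gained bins were also low at GD14.5 IS, though no gained bin of Ltbp1, Tox, Thsd4 or Nfib passed the stage test. The 13 gained bins of Ltbp1 averaged 63.2%, 70.8%, 32.2%, 5.63% and 35.9% in cKO lists from GD5.5 IIS to GD18.5 IS, and 30.2%, 25.3%, 17.2%, 14.1% and 6.72% in control lists. The 10 gained bins of Tox averaged 83.8%, 84.3%, 53.5%, 17.2% and 53.8% in cKO lists, and 68.8%, 70.8%, 47.5%, 20.01% and 19.8% in control lists. The 10 of Dock4, a Rac activator gene, had 78.3%, 82.3%, 46.5%, 12.9% and 51.4% in cKO lists and 64.7%, 70.035%, 61.3%, 16.2% and 22.2% in control lists. By contrast, the 19 gained bins of Thsd4 stayed between 65.2% and 79.5% in these cKO lists and between 51.9% and 67.7% in the control lists.

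Genes of uterine function were looked up among the gained bins by list. Over all autosomal protein-coding genes, 2.46% held a gained bin, and no list was tested against that share. Among genes for contraction and parturition, Kcnma1 held 4 gained bins, of which 1 was higher in cKO and none was lower, and no count over that list is given. Of 29 genes for decidualization and implantation 2 held a gained bin, Bmper, which encodes a BMP-binding protein, with 2 and Alpl, the alkaline phosphatase gene expressed in decidua, with 1. The Alpl bin had 68.0%, 45.3%, 14.7%, 0% and 0% in the cKO lists from GD5.5 IIS to GD18.5 IS, and 36.7%, 7.12%, 10.9%, 0% and 0% in the control lists, and the smallest adjusted p over the genotype pairs was 0.179 by limma. Of 24 steroid receptor and progesterone-responsive genes, 2 held a gained bin, Nr3c2, the mineralocorticoid receptor gene, with 4 and Fkbp5 with 1. One of the Nr3c2 bins was higher in cKO (limma adjusted p = 0.0248), and the 4 bins averaged 85.4% in cKO and 71.9% in control lists. Of 51 Wnt, BMP, FGF and hedgehog genes 2 did, Bmp5 with 3 and Fgf1 with 1. Of 39 chemokine and inflammatory cytokine genes Csf1 alone did, and its bin held only 2.41% of the span of the gene, at its start.

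The long genes of neuronal adhesion and synapse, with a median length of 671 kb, had 13 of 73 with a gained bin, and 32 of 73 with a lost bin. They included Ctnna3 with 5 gained bins and Cntnap2, Gria1 and Slit2 with 3 each. Of their 23 gained bins 2 were higher in cKO and none was lower, where 13.8% of all bins tested and 22.8% of gained bins were higher. Of 89 developmental transcription factor genes, which are classic Polycomb targets, Lhx4 alone held a gained bin, with a mean of 90.7% in cKO and 79.5% in control lists. No gained bin lay in any of 39 Hox genes, 35 matrix genes, 18 Polycomb and H3K27 demethylase genes, 9 cell cycle inhibitor genes, 1104 olfactory receptor genes, 231 vomeronasal receptor genes, 123 vomeronasal type 2 receptor genes or 101 cytochrome P450 genes. Over all autosomal protein-coding genes only 2.46% held one, and a short gene has few bins to be chosen from. These low counts are thus not read as avoidance, which was not tested.

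**Figure D5:**
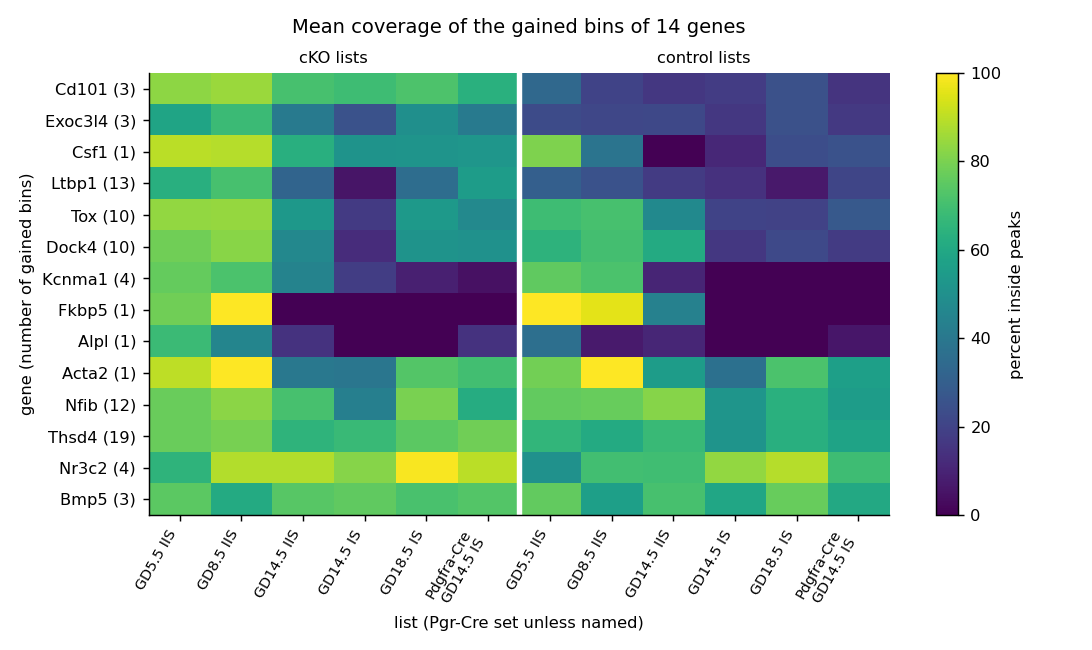
Mean percent inside peaks of the gained bins of 14 genes, with the number of gained bins in brackets, in the 6 cKO lists on the left and the 6 control lists on the right, on a colour scale from 0 to 100. Cd101 is high in every cKO list and low in every control list, Kcnma1, Fkbp5 and Alpl are low in both genotypes at GD14.5 IS and GD18.5 IS, and Thsd4 lies between 51.9% and 79.5% in all 12 lists.

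Markers of cell types were also set beside the gained bins. Acta2 was the 1 of 5 smooth muscle markers with a gained bin, with 90.1%, 100%, 40.2%, 39.3% and 73.3% in the cKO lists from GD5.5 IIS to GD18.5 IS, and 78.8%, 100%, 55.1%, 36.99% and 71.8% in the control lists. None of 8 fibroblast, 5 epithelial, 5 endothelial, 5 immune or 5 trophoblast markers held one, where 2.46% of all protein-coding genes did. Peak lists hold no RNA, so the share of each cell type in a list was not tested. Pgr, the progesterone receptor gene, was at 0 in all 16 lists. The bins of Kdm6b averaged 21.02% in cKO and 16.0% in control lists, and such values do not show whether the gene was deleted. The bins of Pdgfra averaged 22.7% and 22.2%.

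Strong peaks were rare in the gained bins. A peak with a deposited -log10 q of at least 2 touched 19 gained bins (0.936%) in any of the 12 Kdm6b lists, against 2.45% of all autosomal bins, and 29 (1.43%) in any of the 4 B6CBAF1/J lists, against 2.26%. With only such peaks, 6 gained bins reached the filter of the genotype test and 0 passed it by limma in either direction, with 0 at an unadjusted p under 0.05. Nearly all coverage described above comes from peaks below that value.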

How the data were processed

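H3K27me3 CUT&RUN libraries of purified mouse uterine fibroblasts were read from 16 deposited broad peak lists, each pooling 3 samples, 48 of the 80 samples in the labels. The other samples were not analysed here, and their depth was not among the sources used. The submitters' processing notes name STAR 2.7.5c, samtools 1.10, bedtools 2.29.1, bedGraphToBigWig 2.8, macs2 2.2.7.1 and mm10. The deposited lists give positions, a fold over background (ratio), -log10 p values and a -log10 q score per peak, as the authors' peak caller wrote them. From the positions, peaks of each list were merged and the percent of each autosomal 10-kb bin inside them was computed. Bins with a mean of at least 5% over the 12 Kdm6b lists entered limma 3.58.1 (R 4.3.3) on 6 cKO minus control differences, with Benjamini-Hochberg adjustment, after tests on simulated data. With 1 list per group, the p-values of the genotype test measure the spread between pairs that differ in stage, site or Cre set. Those of the stage test measure the spread between single lists around the genotype and stage terms. Bins next to each other are not independent. Genes and start windows came from RefSeq tables on GRCm38.p6. Named items were the 10 longest regions, the 10 genes (at least 2 gained bins) with the highest percent of their span in gained bins, the 10 bins each way with the smallest p and 1 sign in all 6 pairs, up to 8 genes per list, and Kdm6b, Pgr and Pdgfra. Genes by number of gained bins, 1-Mb windows and the stage test were added after values were seen. The members and lists were chosen with earlier results of these data known. A few listed genes are not reported here. Alternatives were equal covered length (each list cut to its most significant peaks, 487 Mb in the Kdm6b set and 544 Mb in the B6CBAF1/J set), strong peaks, other thresholds and bin sizes, and leaving out each pair or list. Scripts ran in Python 3.11.15 with pandas 2.3.3, numpy 2.4.6, matplotlib 3.10.9 and scipy 1.17.1.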

Additional observations from a re-analysis of the deposited data

Results flagged for a closer look

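Of 81 groups of 6 lists or pairs examined, 7 had 1 value set apart from the other 5, and chance alone sets apart about 1 in 20 groups. The number of gained bins at least 40 points lower in cKO was 139 in the GD14.5 IIS pair, above the other 5 pairs. Among control lists, the mean coverage of the gained bins was set apart at its lowest value for Gm40755, with 74.9% at GD5.5 IIS, for Dgki, with 32.3% in the Pdgfra-Cre set list, and for Fgf1, with 62.5% at GD5.5 IIS. Among control lists it was set apart at its highest value for Alpl, with 36.7% at GD5.5 IIS, and for Gria1, with 39.95% at GD5.5 IIS. Among cKO lists it was set apart at its lowest value for Bmp5, with 61.1% at GD8.5 IIS.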

How the results depend on the processing

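Of 110 alternative values, 41 kept to the value given in the report within its spread or within 1.5 times, and 69 moved. A reversed sign was looked for only in the median cKO minus control difference over the gained bins, and 0 reversed. The fit with the 5 Pgr-Cre pairs is the same as leaving out the Pdgfra-Cre pair, and both are among the alternatives. The bins gained in all 3 lists numbered 3133 at equal covered length, of which 1137 were among the 2029, 289 with strong peaks alone, of which 6 were among them, 3727 at 30 points, 1098 at 50 points, 5565 with 5-kb bins and 685 with 20-kb bins. Bins higher in cKO numbered 175 at equal covered length, 0 with strong peaks (0 at an unadjusted p under 0.05 by limma), 182 with no filter on mean coverage, 294 with the 5 Pgr-Cre pairs, 830 among bins gained by 30 points, 257 among those gained by 50 points, and 291 to 341 with 1 pair left out. Bins lower in cKO numbered 8, 0, 1, 24, 37 and 9 under these settings in the same order, 37 after subtracting each pair's median difference, and 1 to 24 with 1 pair left out. The median difference over the gained bins stayed within the spread between pairs under each alternative tried. At equal covered length the median coverage was 52.4%, 59.95%, 38.1%, 30.2%, 40.1% and 43.5% in the cKO lists, in the order of the report, and 36.3%, 31.04%, 29.15%, 16.8%, 22.4% and 23.1% in the control lists. The share in protein-coding genes was 46.6% at 30 points and 53.2% at 50 points. With a size of 25 points, bins lower in at least 1 later list than at GD5.5 IIS numbered 743 in cKO and 700 in control, and higher ones 333 and 483. At equal covered length, lower ones numbered 608 in cKO, and higher ones 303 in cKO and 350 in control. In the late against early test, equal covered length gave 5 higher bins, cKO lists alone gave 0 lower and 0 higher by limma (399 and 57 at an unadjusted p under 0.05), control lists alone gave 0 and 0 (205 and 227), and leaving out 1 list gave 4 to 74 lower and 0 to 11 higher. The genotype test pairs lists of the same stage and site, and an unpaired fit gave 431 higher bins, 367 of them among the 460, and 15 lower. Pooled lists carry no replicate numbers to pair by. Equal covered length leaves the gene positions of the bins as they are, so it gave no value for the gene share. The causes were not tested. Peak lists without read depth limit how far a gap between peaks can be read as absence of the mark.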

Other observations

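Further dense windows, chosen after their values were seen, differed in how many gained bins were higher in cKO. At chr8:125000001-126000000, with gained bins in Disc1, Sipa1l2 and Pcnx2, 11 of 17 were higher, and the mean coverage was 76.7%, 77.1%, 60.3%, 59.8%, 68.3% and 69.3% in the cKO lists (GD5.5 IIS, GD8.5 IIS, GD14.5 IIS, GD14.5 IS, GD18.5 IS, Pdgfra-Cre GD14.5 IS), against 55.3%, 25.3%, 31.5%, 30.5%, 38.7% and 30.95% in the control lists. At chr7:111000001-112000000, with gained bins in Galnt18, 9 of 19 were higher. At chr12:25000001-26000000, with a gained bin in Id2, 0 of 20 were higher, and the cKO lists lay between 66.3% and 70.8% and the control lists between 49.0% and 69.5%.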
